A study of Mus musculus with 9 samples.

Results

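The cell junctions of the intercalated disc were followed through 10 genes: the connexins Gja1, Gja5 and Gjc1, the adherens junction genes Cdh2 and Ctnna3, and the desmosome genes Dsg2, Dsc2, Dsp, Pkp2 and Jup. The genes were chosen by name for their known place in this structure, not by their values. All 10 were found among the 38293 genes of the count table, each under a single Ensembl identifier, and all 10 were among the 15318 genes that had enough counts to be tested. Ventricles of mice at postnatal day 7 (P7) were compared between 5 libraries of Arid1a f/f control littermates and 4 libraries of aMHC-Cre;Arid1a f/f mutants (cKO). The lines were kept on a C57B/6 J background. Both groups carried the floxed Arid1a alleles, and the mutants alone carried the Cre transgene, so effects of Cre and of the deletion cannot be told apart. Cre was driven by the cardiomyocyte promoter of alpha myosin heavy chain, whereas the RNA came from whole ventricles with all their cell types. The comparison addresses how deleting Arid1a, the gene of a SWI/SNF chromatin remodelling subunit, alters expression in the neonatal heart.

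The intercalated disc joins cardiomyocytes end to end. Connexins form the gap junction channels that carry the impulse from cell to cell, N-cadherin of the adherens junction is tied through catenins to actin, and desmosomal cadherins are tied through plakoglobin, plakophilin and desmoplakin to the intermediate filament desmin. In the newborn heart these proteins are spread over the cell surface, and they gather at the cell ends as cardiomyocytes mature. Inherited defects of the desmosomal genes are known causes of arrhythmogenic cardiomyopathy.

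Of the 10 genes, Gja1 alone passed the adjusted threshold with all libraries, and it was lower in the cKO. Gja1, which encodes the main connexin of working ventricular muscle, averaged 984 ± 39.7 CPM over the 5 control and 795 ± 52.6 CPM over the 4 cKO libraries (mean ± SD). CPM are counts scaled to the size of the library. Thus 1 of 10 genes passed an adjusted p of 0.05 in edgeR's quasi-likelihood test, against 16.3% of all tested genes, of which 8.03% were lower and 8.25% higher. Called genes, for which a change over 1.5-fold was required as well, were 0 of the 10, against 6.72% of all genes; at an unadjusted p under 0.05 there were 5 of 10, against 29.7%, and with DESeq2 4 of 10 passed an adjusted p of 0.05, against 20.5%. The median log2 fold change of the 10 genes was -0.09, with 6 genes below and 4 above 0, and that of all tested genes was 0.01. Library groups that did not overlap were found for Gja1 and Dsp, or 2 of 10, both with the cKO below the controls. All tested genes had 16.7% without overlap, 8.58% with the cKO below and 8.16% with the cKO above.

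**Figure D1:**
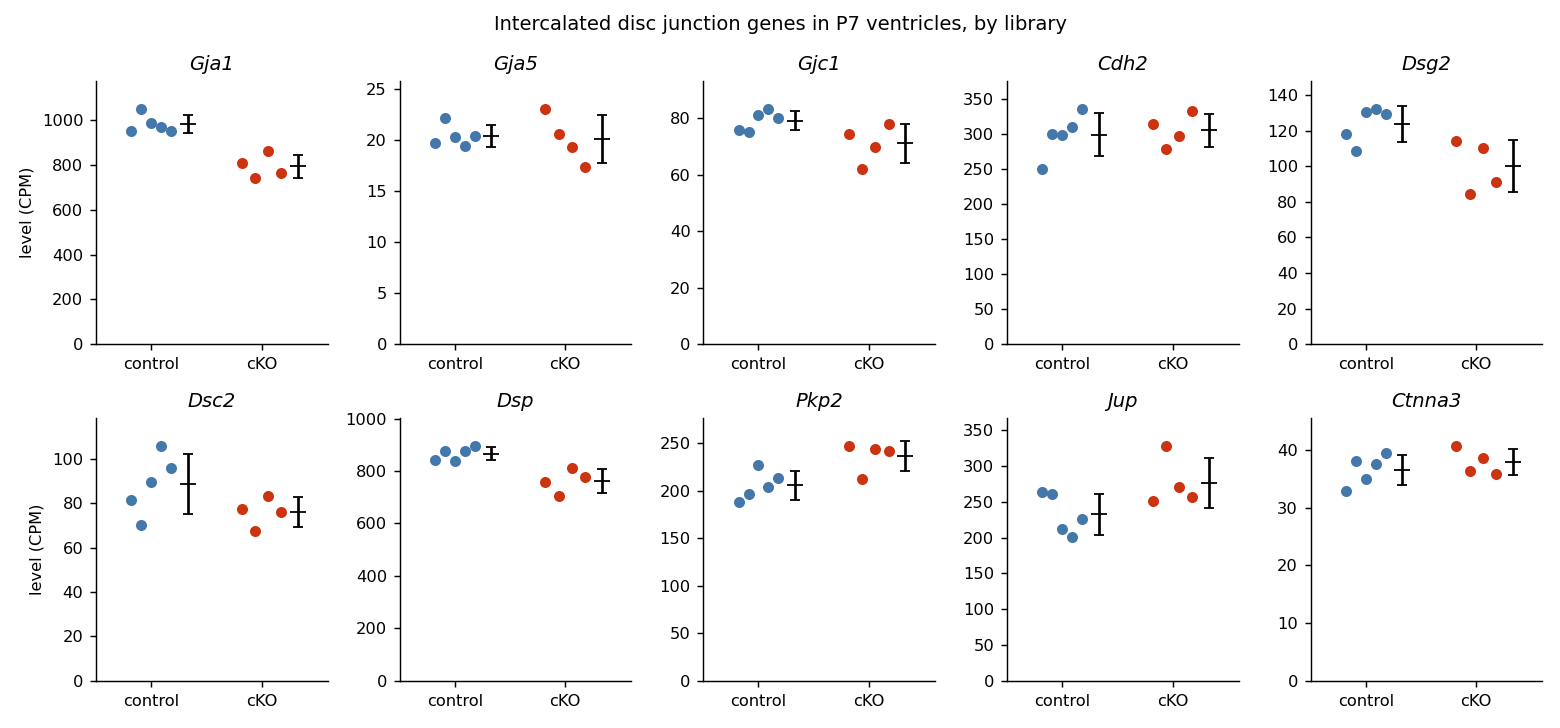
Level of each of the 10 junction genes in CPM (vertical axes, from 0) in the 5 control libraries (blue) and the 4 cKO libraries (red), with 1 point per library and the mean ± SD in black beside them. The cKO points lie below all control points for Gja1 and Dsp and overlap with them for the other genes.

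The sequences before the start sites are shown for Gja1 and Dsp, the genes whose library groups did not overlap and which were both lower, and for Gja5, a connexin whose level in the cKO was close to that of controls. RefSeq promoter windows on GRCm38.p6 were found for 5 of the 10 genes, namely Gja1, Gja5, Dsp, Jup and Ctnna3. Printed are the 250 bases before the RefSeq start site, 5′ to 3′ on the strand of the gene, which is the plus strand in all of them. The bases just after the start site were found whole in a GENCODE transcript of the gene for Dsp but not for Gja1 or Gja5, and the Gja5 start site, at 97032402, is inside the span of that gene given below. Capitals mark matches, on either strand, to any of 4 motifs: AGGTGT for T-box factors, AAGTG for NKX2-5, GGAATG for TEAD factors and TGANTCA for AP-1.
Gja1, chr10:56377050-56377299: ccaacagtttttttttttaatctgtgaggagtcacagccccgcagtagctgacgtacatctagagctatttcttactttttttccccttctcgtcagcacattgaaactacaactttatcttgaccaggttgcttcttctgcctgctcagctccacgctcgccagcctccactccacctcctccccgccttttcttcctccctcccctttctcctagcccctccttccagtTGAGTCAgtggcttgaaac
Gja5, chr3:97032152-97032401: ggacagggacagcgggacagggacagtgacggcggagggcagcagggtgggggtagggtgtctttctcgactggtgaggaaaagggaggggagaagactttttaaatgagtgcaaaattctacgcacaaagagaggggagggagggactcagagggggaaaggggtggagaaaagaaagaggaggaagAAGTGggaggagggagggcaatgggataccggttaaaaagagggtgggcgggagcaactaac
Dsp, chr13:38151044-38151293: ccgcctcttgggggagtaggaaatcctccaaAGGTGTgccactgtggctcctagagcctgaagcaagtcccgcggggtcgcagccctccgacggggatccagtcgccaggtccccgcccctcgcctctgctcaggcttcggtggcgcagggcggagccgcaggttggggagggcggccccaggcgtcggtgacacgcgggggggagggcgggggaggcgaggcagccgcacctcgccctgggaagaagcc
The Gja1 window held an AP-1 match that began 19 bases before the start site, and such a match was present in 6.75% of all 32851 promoter windows of this length. In the Gja5 window a single NKX2-5 match began 62 bases before the start site, and 40.7% of all windows held one. The Dsp window held a T-box match 219 bases before the start site, present in 11.8% of all windows. TEAD matches, present in 12.6% of all windows, were found in none of these 3. Among the windows not printed, that of Jup, whose fitted change was 0.25, held a T-box match 19 bases before its start site. Windows of Ctnna3 held NKX2-5, TEAD and T-box matches. No match overlapped another. GC content was highest in the Dsp window, at 72.4%, against 56.4% in that of Gja5.

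The libraries held 31011055 to 40073801 counts. Arid1a itself was at 139.8 ± 8.84 CPM in controls and 106.4 ± 5.44 CPM in cKO (SD, n = 5 and 4), or -0.39 on the log2 scale with an SE of 0.06 and an adjusted p of 0.00132 by edgeR, without overlap between the groups. In the Rps3a3-low libraries alone, defined next, it was at -0.33 with an adjusted p of 0.0822 by edgeR. Apart from genotype, the libraries fell into 2 sets by the level of Rps3a3, a copy of the ribosomal protein gene Rps3a1. Under 10 CPM of it was seen in controls 1 and 2 with cKO 1 to 3 (the Rps3a3-low set), and more in controls 3 to 5 with cKO 4 (the Rps3a3-high set). The labels name no batch, and the high set holds 1 cKO library, so that values within it have no replicate check. Since the sets cut across the groups, differences within each are given below for every junction gene.

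Gja1 (ENSMUSG00000050953, GRCm38 chromosome 10, 56377330 to 56402513) was the only gene of the 10 to pass the adjusted threshold. Its level was 955, 1049.7, 989.8, 972 and 953 CPM in the controls (replicates 1 to 5) and 811, 743, 861 and 764 CPM in the cKO (replicates 1 to 4). The lowest control thus lay above the highest cKO library. On the log2 scale the change was -0.31 (SE 0.06, 95% interval -0.44 to -0.17, adjusted p = 0.00536 by edgeR), a decrease of 19.2%. The difference in mean log2(CPM + 0.5) was -0.32 in the low and -0.35 in the high set. The direction was the same in all 18 alternative fits, which ranged from -0.35 to -0.28, and the gene passed in 17 of them. The 5 Rps3a3-low libraries alone were the exception, at -0.32 and an adjusted p of 0.0853. In whole ventricles, fewer cardiomyocytes and less RNA per cardiomyocyte cannot be told apart.

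Gja5 (ENSMUSG00000057123, chromosome 3, 96904693 to 97077416) encodes the fast-conducting connexin of atrium, ventricular conduction system and arterial endothelium. The gene was measured at 19.7, 22.2, 20.4, 19.4 and 20.4 CPM in the controls (replicates 1 to 5) and at 23.05, 20.6, 19.4 and 17.4 CPM in the cKO (replicates 1 to 4), from 617 to 778 counts per library. The cKO libraries spanned a wider range that contained the control range. The fitted change was -0.02 on the log2 scale, with a 95% interval from -0.22 to 0.17 (SE 0.09, adjusted p = 0.898 by edgeR), and its sign turned in the Rps3a3-low libraries (0.01), without control replicate 2 (0.01) and without cKO replicate 4 (0.04). By set it was 0.00 (low) and -0.20 (high). Its annotated span overlaps Gpr89 on the opposite strand, and since the strand setting of the counting is not stated, reads near Gpr89 are uncertain.

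Gjc1 (ENSMUSG00000034520, chromosome 11, 102799579 to 102819700), the connexin of nodal, early embryonic and vascular smooth muscle cells, was at 75.9, 75.2, 81.3, 83.1 and 80.0 CPM in the controls (replicates 1 to 5) and at 74.3, 62.1, 69.8 and 78.0 CPM in the cKO (replicates 1 to 4). All 4 cKO libraries were below the control mean, with cKO replicate 2 the lowest, but cKO replicate 4 lay inside the control range. The change of -0.16 (SE 0.07, 95% interval -0.31 to 0.00) did not pass, with an adjusted p of 0.178 by edgeR, and it was -0.10 without cKO replicate 2. Within the low set the difference was -0.14 and within the high set -0.06.

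**Figure D2:**
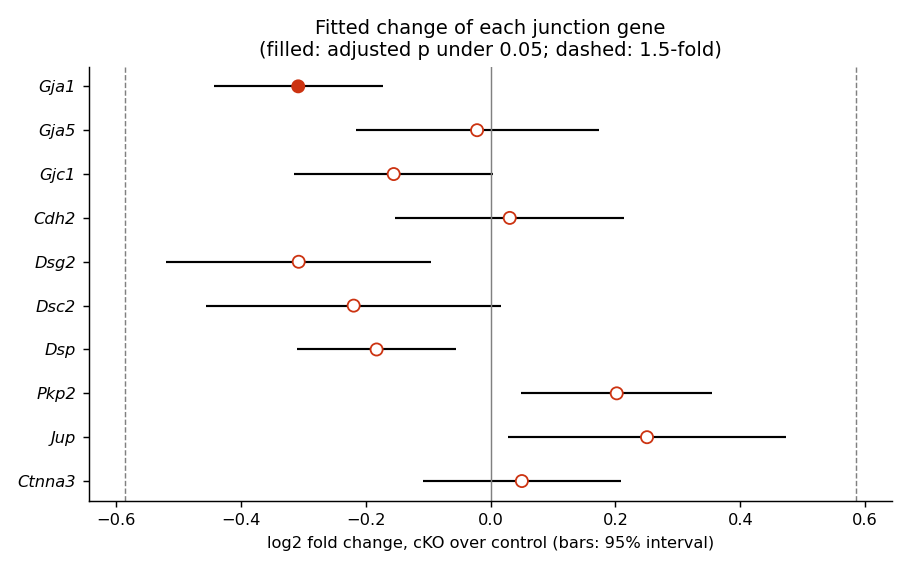
Log2 fold change of cKO over control (horizontal axis) for each of the 10 junction genes, with 95% intervals as bars and dashed lines at a 1.5-fold change. Gja1, the filled point at -0.31, passed an adjusted p of 0.05, and no interval reaches the dashed lines.

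Among the desmosomal cadherins, Dsg2 (ENSMUSG00000044393, chromosome 18, 20558074 to 20604521) encodes the desmoglein of heart muscle. It stood at 118, 108.5, 131, 132 and 129 CPM in the controls (replicates 1 to 5) and at 114.5, 84.4, 110.2 and 91.0 CPM in the cKO (replicates 1 to 4). Groups overlapped through control replicate 2, which lay below cKO replicates 1 and 3. The fitted log2 fold change was -0.31 (SE 0.10, 95% interval -0.52 to -0.10), about that of Gja1, and missed the threshold with an adjusted p of 0.0505 by edgeR. It passed in 5 of 18 alternatives, namely DESeq2 (adjusted p = 0.0224) and, by edgeR, RLE scaling (adjusted p = 0.0489), no filter (adjusted p = 0.0344) and when control replicate 2 was left out (-0.35, adjusted p = 0.0348) or when cKO replicate 1 was (-0.38, adjusted p = 0.0228). In the Rps3a3-low libraries alone the fit gave -0.14 (adjusted p = 0.658 by edgeR), and the difference was -0.15 in the low but -0.52 in the high set.

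Dsc2 (ENSMUSG00000024331, chromosome 18, 20030633 to 20059554), the desmocollin partner of Dsg2 from the same chromosome, was at 81.6, 70.3, 89.3, 106 and 95.6 CPM in the controls (replicates 1 to 5) and at 77.5, 67.3, 83.3 and 76.0 CPM in the cKO (replicates 1 to 4). Control replicates 1 and 2 lay among the cKO libraries and the 3 other controls above them. The change of -0.22 (SE 0.11, 95% interval -0.46 to 0.02) did not pass, with an adjusted p of 0.201 by edgeR. By set it was 0.00 (low) and -0.34 (high), and among controls alone the Rps3a3-low libraries were lower than the Rps3a3-high ones by -0.35 on the log2 scale.

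Dsp (ENSMUSG00000054889, chromosome 13, 38151294 to 38198577) encodes desmoplakin, the link from the desmosomal plaque to intermediate filaments. Controls (replicates 1 to 5) held 843, 878, 839, 876 and 896 CPM, and the cKO (replicates 1 to 4) held 759.8, 704, 813 and 776 CPM. Every cKO library was lower than every control, and the mean went from 866 ± 24.5 to 763 ± 45.2 CPM (SD, n = 5 and 4). The log2 fold change of -0.18 (SE 0.06, 95% interval -0.31 to -0.06) nevertheless missed the threshold, with an adjusted p of 0.0522 by edgeR. It passed in 3 of 18 alternative fits, with the lowest adjusted p of 0.00813 under DESeq2, and in 0 of the 9 fits that left out a library. Differences within the sets were close, at -0.18 in the low and -0.16 in the high one.

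Neither of the desmosomal armadillo protein genes, Pkp2 and Jup, passed the threshold. Pkp2 (ENSMUSG00000041957, chromosome 16, 16213318 to 16272712) encodes plakophilin 2, which ties desmosomal cadherins to desmoplakin and also bears on connexin placement at the disc. Its level was 188, 197, 227, 204 and 213 CPM in the controls (replicates 1 to 5) and 247, 213, 244 and 242 CPM in the cKO (replicates 1 to 4). Of the cKO libraries, 3 lay above all controls and cKO replicate 2 fell inside the control range. A log2 fold change of 0.20 (SE 0.07, 95% interval 0.05 to 0.35) was obtained, with an adjusted p of 0.0721 by edgeR. It passed in 4 of 18 alternatives, namely DESeq2 (adjusted p = 0.0418), a term for library set (0.24, adjusted p = 0.0216 by edgeR) and the fits without cKO replicate 2 (0.25, adjusted p = 0.0319 by edgeR) or control replicate 3 (0.24, adjusted p = 0.0487 by edgeR). Within the sets the differences were 0.28 and 0.18.

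Jup (ENSMUSG00000001552, chromosome 11, 100368958 to 100397763) encodes plakoglobin, which binds both classical and desmosomal cadherins. The controls (replicates 1 to 5) held 263, 261, 212, 200.3 and 225 CPM, and the cKO (replicates 1 to 4) held 251, 328, 271 and 256 CPM. Control replicates 1 and 2 lay among the cKO libraries, and cKO replicate 2 stood highest. The change was 0.25 (SE 0.10, 95% interval 0.03 to 0.47, adjusted p = 0.122 by edgeR) and passed in 0 of 18 alternatives. Without cKO replicate 2 it was 0.16. Differences of 0.10 (low) and 0.27 (high) were found by set, and among controls alone the low set was higher by 0.30.

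Neither adherens junction gene passed. Cdh2 (ENSMUSG00000024304, chromosome 18, 16588877 to 16809246) encodes N-cadherin, the classical cadherin of heart muscle. Values of 250.2, 301, 299, 310.1 and 336 CPM in the controls (replicates 1 to 5) and of 314, 278, 297 and 333 CPM in the cKO (replicates 1 to 4) overlapped throughout. The fit gave a change of 0.03 (SE 0.08, 95% interval -0.15 to 0.21, adjusted p = 0.843 by edgeR), with differences of 0.11 (low) and 0.08 (high) by set, and it turned to -0.03 without control replicate 1 and to -0.01 without cKO replicate 4.

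Ctnna3 (ENSMUSG00000060843, chromosome 10, 63430098 to 65003667) encodes alphaT-catenin, a catenin largely restricted to heart and testis that binds plakophilin 2. It was at 32.8, 38.0, 34.9, 37.5 and 39.4 CPM in the controls (replicates 1 to 5) and at 40.7, 36.3, 38.6 and 35.8 CPM in the cKO (replicates 1 to 4). The groups overlapped, with a change of 0.05 (SE 0.07, 95% interval -0.11 to 0.21, adjusted p = 0.69 by edgeR) that was 0.01 without control replicate 1 or without cKO replicate 1. Differences within the sets had opposite signs, 0.12 for Rps3a3-low and -0.06 for Rps3a3-high libraries. Lrrtm3, which lies on the opposite strand inside this gene, had no more than 23 counts in any library.

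**Figure D3:**
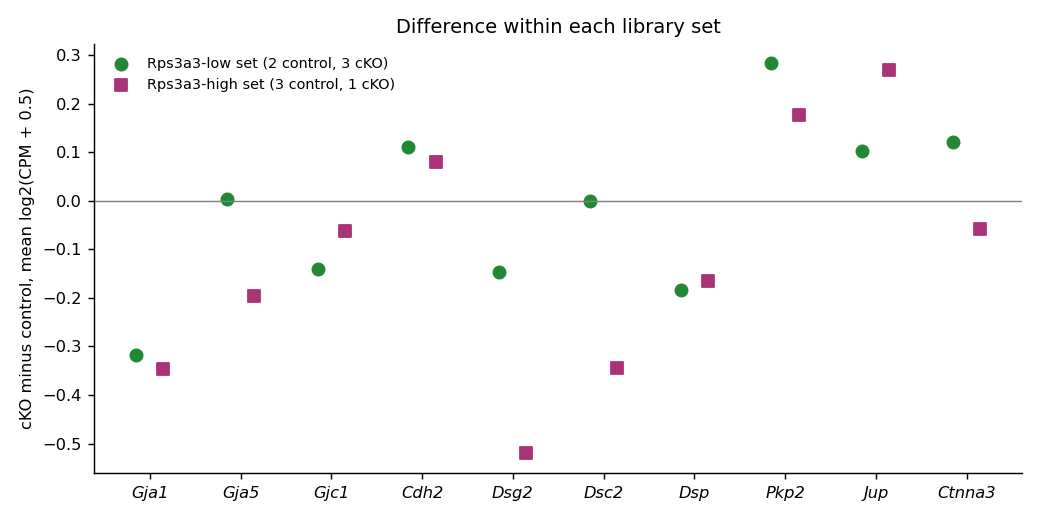
Difference of cKO minus control in mean log2(CPM + 0.5) (vertical axis) for the 10 junction genes in the low set (circles) and in the high set (squares, with a single cKO library). Both marks lie below 0 for Gja1, Gjc1, Dsg2 and Dsp and above 0 for Cdh2, Pkp2 and Jup.

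Levels per kb of annotated exon set the genes side by side in controls. The length is that of all annotated exons of a gene together, not of the transcripts expressed, so the order depends on the annotation. Gja1 was highest, at 95.9 ± 3.87 CPM per kb, followed by Dsp at 89.7 ± 2.53 (SD, n = 5). Their control ranges narrowly did not overlap, with the lowest Gja1 value at 92.94 and the highest Dsp value at 92.72. Pkp2 at 38.4 ± 2.79, Cdh2 at 37.1 ± 3.84 and Jup at 36.1 ± 4.44 CPM per kb formed a middle tier within which neighbours overlapped. Dsc2 at 16.8 ± 2.56, Gjc1 at 15.8 ± 0.684 and Dsg2 at 15.0 ± 1.24 CPM per kb also overlapped with their neighbours. Ctnna3 at 5.05 ± 0.362 and Gja5 at 3.55 ± 0.186 CPM per kb were lowest and stood apart from each other. In the cKO the means of Gja1 and Dsp, with the same lengths, were 77.5 and 79.0 CPM per kb.

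**Figure D4:**
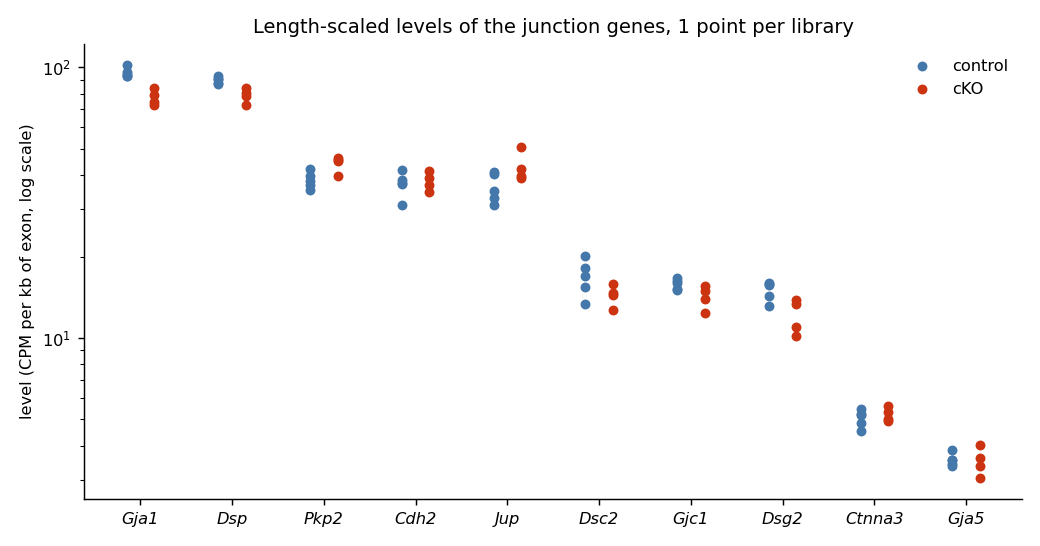
Level of each junction gene per kb of annotated exon (vertical axis, log scale) in control (blue) and cKO (red) libraries, ordered by the control mean. Gja1 and Dsp lie near the top of the plot and Ctnna3 and Gja5 at the bottom, at means of 5.05 and 3.55 CPM per kb in controls.

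Ratios within a library do not depend on how libraries are scaled, and 4 of them were tested by exact permutation (two-sided). Gja5 made up 3.07, 3.18, 3.05, 2.94 and 3.16% of the summed length-scaled level of the 3 connexins in the controls (replicates 1 to 5) and 4.10, 4.06, 3.33 and 3.26% in the cKO (replicates 1 to 4). The share was higher in all 4 cKO libraries than in any control, 3.69 ± 0.454% (SD, n = 4) against 3.08 ± 0.0949% (SD, n = 5), with an exact permutation p of 0.00794, the smallest that 5 against 4 libraries can give, and an adjusted p of 0.0317 over the 4 measures. The denominator is mostly Gja1, the gene that fell. Without any one library the adjusted p by exact permutation was 0.0714 or 0.114, with differences of 0.468 to 0.747 percentage points. Fewer libraries raise the smallest unadjusted p, and the adjusted p also depends on the other measures. This share was higher by 0.701 percentage points in the low set and by 0.209 in the high set. The share of Jup in Jup plus its paralog Ctnnb1, which encodes beta-catenin, was 19.6 ± 2.38% in controls (n = 5) and 23.6 ± 2.97% in cKO (n = 4; exact permutation p = 0.0714, adjusted p = 0.143). This difference was 2.61 to 4.81 percentage points without single libraries, and 2.34 in the low set and 3.42 in the high set. The share of Ctnna3 in the alpha-catenins Ctnna1 and Ctnna3 was 3.31 ± 0.286% and 3.15 ± 0.107% (exact permutation p = 0.31, adjusted p = 0.31). By set its difference turned, at 0.133 (low) and -0.329 (high) percentage points, and it was -0.253 to -0.0999 without single libraries. Dsc2 over Dsg2, as a log2 ratio, was 0.15 ± 0.12 and 0.26 ± 0.13 (exact permutation p = 0.254, adjusted p = 0.31). The difference of this ratio was 0.06 to 0.16 without single libraries. The last 3 measures overlapped between the groups.

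The rest of the junction genes behaved unevenly. Of 20 other connexin and pannexin genes 6 were tested, and the other 14 reached at most 0.311 CPM in any library, 5 of them with 0 counts throughout. Panx2, a pannexin channel gene, fell by 1.63 (log2, with SE 0.30 and adjusted p = 0.00286 by edgeR) at a level near 1.18 CPM in controls, and 0 of the other 5 passed. The endothelial connexin Gja4 was at 15.8 ± 1.82 CPM in controls and 18.9 ± 4.93 CPM in cKO (adjusted p = 0.281 by edgeR). Of 15 other cadherin and adherens junction genes 14 were tested and 1 passed, against 16.3% of all tested genes. It was the cadherin gene Cdh13, which encodes T-cadherin and fell by 0.29 (SE 0.07, adjusted p = 0.0109 by edgeR). Among Rps3a3-low libraries alone, Panx2 was at -1.71 (adjusted p = 0.0512 by edgeR) and Cdh13 at -0.28 (adjusted p = 0.0815 by edgeR), and neither passed. Ctnna1 at 0.12 (SE 0.07) and Ctnnb1 at -0.10 (SE 0.06) did not pass. Of 12 other desmosome and related genes 3 were tested (Pkp4, Perp and Tmem43) and 0 passed by edgeR, with 1 at an unadjusted p under 0.05. The remaining 9, which include the desmogleins and desmocollins of stratified epithelium, reached at most 0.463 CPM.

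Scaffold and signalling genes of the disc were all tested. At an adjusted p under 0.05 by edgeR, 6 of 24 were lower and 4 higher, against 8.03% and 8.25% of all tested genes. By sign alone 12 were lower and 12 higher, with a median of -0.02. Tmem65, an intercalated disc membrane protein gene, fell by 0.53 (SE 0.08, adjusted p = 0.000695 by edgeR), with -0.47 in the Rps3a3-low libraries, where it did not pass (adjusted p = 0.0549 by edgeR). The actin-binding repeat protein gene Xirp2 rose by 0.84 (SE 0.24, adjusted p = 0.0442), Flnc, which encodes filamin C, by 0.52 (SE 0.14, adjusted p = 0.0255) and Bves, a Popeye domain gene, by 0.47 (SE 0.11, adjusted p = 0.0129), each by edgeR. Xirp2 and Flnc each lost the threshold in 9 of 18 alternatives. Among 8 intermediate filament genes 4 rose and 0 fell, with a median of 0.41. Desmin (Des), the filament that desmoplakin anchors in muscle, rose by 0.42 (SE 0.10, adjusted p = 0.0152 by edgeR). Its mean was 782 ± 77.7 CPM in controls and 1048 ± 157 CPM in cKO, and it lost the threshold with the replicate block (0.39) and in the Rps3a3-low libraries (0.28). The simple epithelial keratins Krt8, from 1.21 ± 0.733 to 17.7 ± 5.93 CPM, and Krt18 were called, with log2 fold changes of 3.87 and 2.73, and Vim rose by 0.28. Vim lost the threshold in the Rps3a3-low libraries (0.22, adjusted p = 0.226 by edgeR).

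**Figure D5:**
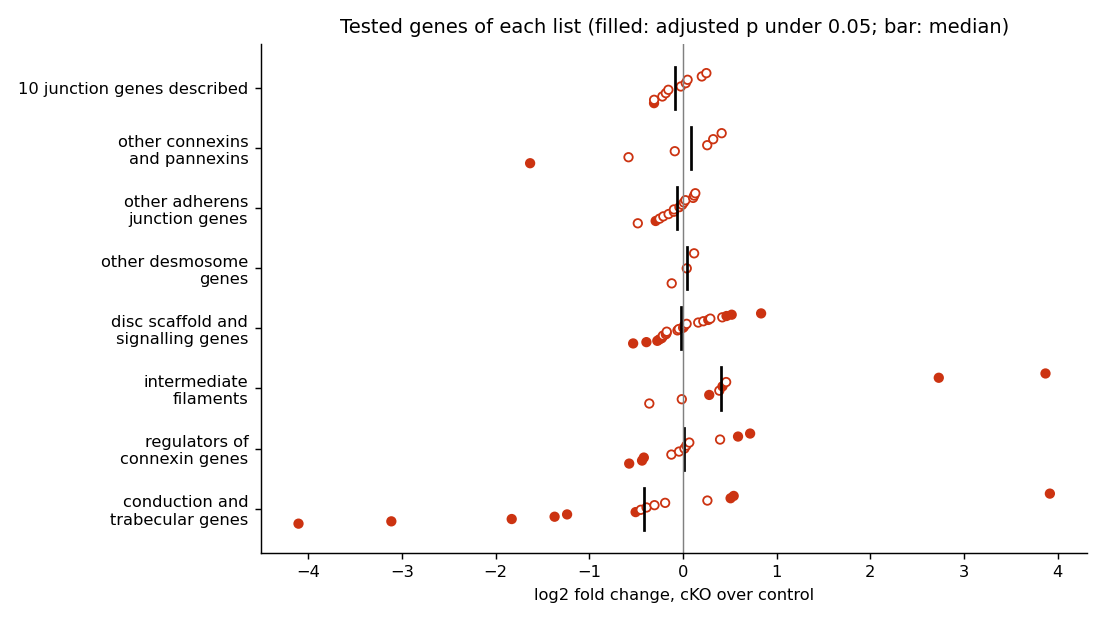
Log2 fold change of cKO over control (horizontal axis) for every tested gene of the 10 junction genes and of 7 related lists, with filled points at an adjusted p under 0.05 and a black bar at each median. The 10 junction genes lie within -0.31 and 0.25, while single genes of the intermediate filament and conduction lists reach 3.87 and -4.10.

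Factors known to regulate connexin genes were compared as well. At an adjusted p under 0.05 by edgeR, 3 of 11 were lower and 2 higher, against 8.03% and 8.25% of all tested genes. By sign alone 5 were lower and 6 higher, with a median of 0.02. Tbx5, a known activator of Gja5, fell by 0.57 (SE 0.10, adjusted p = 0.00233 by edgeR), and Tbx20 fell by 0.42 (SE 0.08, adjusted p = 0.00499 by edgeR), while Gja5 had the log2 fold change of -0.02 given above. Tbx3, a repressor of Gja5 and Gja1 in nodal tissue, changed by -0.44 (adjusted p = 0.0473 by edgeR) and lost the threshold in 13 of 18 alternatives. Irx5 rose by 0.72 and Tbx18 by 0.59. In the Rps3a3-low libraries Tbx20 was at -0.36 (adjusted p = 0.1) and Irx5 at 0.81 (adjusted p = 0.0685 by edgeR), and neither passed there. Of 15 genes of conduction system and trabeculae 14 were tested, and 6 were lower and 3 higher at that threshold. By sign alone 10 were lower and 4 higher. Of the 14 tested genes 5 were called lower, against 6.72% of all tested genes called in either direction. The 5 included Kcnj3 at -4.10 (SE 0.44), Hcn4 at -3.11 (SE 0.32), Cntn2, a surface marker of the ventricular conduction system, at -1.83 (SE 0.33) and Scn10a at -1.37 (SE 0.21). Nppa, a trabecular and stress gene, was called higher at 3.92 (SE 0.32), with values of 3.70 to 4.18 in the 18 alternatives. In the Rps3a3-low libraries it was at 3.70 with an adjusted p of 0.0625 by edgeR. The difference between Gja5, which is expressed in the same conduction tissue, and those genes was not tested.

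Markers of the cell types in the ventricle were compared because several of these junction genes are not restricted to cardiomyocytes. The 10 ventricular cardiomyocyte markers summed to 52897 to 62573 CPM in controls and 47481 to 54231 CPM in cKO, with 2 lower at an adjusted p under 0.05 and a median of -0.13. Over all tested genes 16.3% passed that threshold. Fibroblast markers summed to 5992 to 7055 CPM in controls and 7226 to 8019 CPM in cKO. Of these 8 markers 4 were higher (Col1a1, Tcf21, Cdh11 and Postn), and the rest did not pass. Arterial endothelial markers summed to 323 to 372 CPM and 381 to 429 CPM, with 2 of 10 higher and 1 lower. Unc5b (means 80.7 and 118.9 CPM) and Fbln5 (57.0 and 81.8 CPM) were higher, and Sox17 (16.7 and 12.1 CPM) was lower. The rest of the arterial list did not pass. Genes with high levels weigh most in such sums. The endothelial list had 1 of 8 lower, and its sums overlapped between the groups, as did the sums of the mural list with 0 of 7 and the macrophage list with 0 of 6 past the threshold by edgeR. At an unadjusted p under 0.05 there were 3 mural and 0 macrophage markers, counts from the same fit. Of 8 atrial markers 6 were tested, 1 higher and 1 lower, with sums of 92.1 to 171 CPM in controls and 155 to 223 CPM in cKO, and Bmp10 and Dhrs9 stayed at or under 0.226 CPM. The 7 epicardial markers summed to 23.0 to 90.1 CPM in controls and 21.4 to 35.9 CPM in cKO, with 1 lower. Parts of the fibroblast, arterial and cardiomyocyte markers in the values of Gja1, Gja5, Pkp2 and Jup were not tested.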

How the data were processed

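Poly(A)-selected RNA of P7 ventricles was sequenced by the authors from TruSeq stranded libraries as single-end reads and mapped to mm10. The submitters' processing notes name STAR 2.4.2a and HTSeq 0.6.1. The deposited table holds raw read counts per Ensembl gene, 1 column per library, without normalization. The annotation release and the strand setting are not given in the sources used here. The number of control libraries in the labels is that of the figure legend of the study but above that of its methods text, and every labelled control entered the tests.

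Symbols, coordinates and exon lengths were taken from GENCODE M21 (GRCm38), in which 36345 of 38293 identifiers were found. Low counts were removed with filterByExpr (minimum count 10). Libraries were scaled by TMM, and genotype was tested in R 4.3.3 with edgeR 4.0.16 (robust quasi-likelihood F test, two-sided, Benjamini-Hochberg over all 15318 genes). A gene counted as called if its adjusted p was under 0.05 and it changed over 1.5-fold, after the study, which used DESeq2 (here 1.42.0, as an alternative). SEs were derived from log2 fold changes and F statistics. Differences within library sets used a pseudocount of 0.5. P-values by edgeR set the genotype difference against the variation between these libraries, with information shared across genes. Exact permutation p-values give the fraction of splits with a difference at least as large. Scripts were tested on simulated data. Counts of 617 or more per library lie behind each junction gene.

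Alternatives were RLE and upper-quartile scaling, no filter, a filter at 1 CPM on average, a block for replicate number, the library set as a term, the Rps3a3-low libraries alone, Xist as a covariate and leaving out each library. The study included male and female pups, and Xist served as a marker of sex. It was at 745 and 904 CPM in control replicates 2 and 3 and at 880 and 872 CPM in cKO replicates 3 and 4. In the other libraries it was at 0.283 CPM or less. Named were the 10 genes and, of each other list, up to 5 genes past the threshold by size of change, called genes first. Some genes are not reported here. The genes closest in pattern were to be named for called members, of which there were 0. Ctnna1 and Ctnnb1 were named because they enter the shares. Gja4, Pkp4, Perp and Tmem43 are outside the rule and were named after their values were seen. The members, lists and tests were chosen with earlier results of these data known.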

Additional observations from a re-analysis of the deposited data

Results flagged for a closer look

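In the cKO group Pkp2 of replicate 2 stood apart from the other 3 libraries: at 213 CPM its gap to the nearest of them was 0.858 of the range of the group, above Dixon's 95% critical value for 4 samples. It was the sole value so marked among 28 groups of values examined, and chance marks about 1 in 20 such groups.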

How the results depend on the processing

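The number of junction genes past an adjusted p of 0.05, 1 with all libraries, was 4 with DESeq2 (Gja1, Dsg2, Dsp and Pkp2), 3 with RLE scaling, 2 without a filter, 2 with the filter at 1 CPM, 2 with the library set as a term and 0 in the Rps3a3-low libraries, and 1 to 2 when each library was left out. The number of called junction genes was 0 in all 18 alternatives. Over all genes 1030 were called, against 620 in the Rps3a3-low libraries and 909 to 1171 without single libraries. Of the 47 tested genes of the other junction lists 12 passed, against 16.3% of all tested genes. The number was 6 with the replicate block, 3 in the Rps3a3-low libraries and 7 to 9 without single libraries.

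Panx2 gave no value with the filter at 1 CPM, which removed it. In the Rps3a3-low libraries the log2 fold change of Gja5 turned to 0.0058 and that of Dsc2 to 0.0013. Without single libraries Gja5 ranged from -0.0934 to 0.0412, turning without control replicate 2 or cKO replicate 4, and Cdh2 from -0.0271 to 0.0728, turning without control replicate 1 or cKO replicate 4. The Gja5 share differed by 0.701 points in the Rps3a3-low libraries (adjusted exact permutation p = 0.4), where 3 against 2 libraries cannot give a small p. Without single libraries it differed by 0.468 to 0.747 points, with adjusted exact permutation p-values of 0.0714 to 0.114. These adjusted values depend on the number of libraries and on the other measures. The Ctnna3 share turned to 0.133 points in the Rps3a3-low libraries. The causes were not tested.

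With the replicate number as a block, Gja1 was at -0.32 (adjusted p = 0.0269 by edgeR) and no other gene of the 10 passed. Correlations of same-numbered libraries were 0.0107 to 0.232, so the numbers were not taken as pairs.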
